A study of Mus musculus with 3 samples.

Results

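Transcripts of 53 genes of the lysosome and of autophagy were measured in activated mouse CD4 T cells, in which the amino acid content of the medium was varied. The genes were taken by symbol from a list of names with no threshold on their levels, but the list was drawn up with earlier results of these data known. All 53 were found among the 23282 gene rows of each library. All 53 also passed the filter on low values that left 12770 rows for testing. By role they comprised 5 genes of the lysosomal membrane, 8 cathepsins, 11 genes of glycoside and lipid breakdown, 6 subunits or partners of the V-ATPase, 2 transcription factors, 5 genes of the LC3 and GABARAP family, 2 cargo receptors, 8 genes of initiation and nucleation and 6 genes of conjugation and membrane supply.

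The cells were CD4 T cells of C57BL/6 mice (the J substrain in the study's methods), sorted from spleen and lymph nodes, that were stimulated with antibodies to CD3 and CD28 and kept for 72 h in one of 3 media. Complete medium (CM) was RPMI medium with fetal bovine serum, and dialyzed medium (DM) was RPMI without amino acids with dialyzed serum, so that DM differed from CM in the whole set of free amino acids and in other small molecules of serum. The study measured methionine in DM and reports that some remained, so DM was not free of it. DM+Met was DM with a further 30 µM methionine, and no group carried a transgene or deletion. Each medium had 2 libraries. The study calls them biologically independent, and the labels do not say whether they came from separate mice or separate cultures, so the p-values below measure the spread between these libraries. Levels are given in CPM, the reads of a gene scaled to a library size shared by all samples. The 3′-end library kit yields a read near the poly(A) end of a transcript whatever its length, so CPM can be compared between genes.

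The lysosome is an acidic compartment that breaks down proteins, lipids, glycans and whole organelles. The V-ATPase pumps the protons that keep it acidic, cathepsins and glycosidases digest its contents, and carriers in its membrane return amino acids and cholesterol to the cytosol. In autophagy, the ULK1 and Beclin 1 complexes start a membrane that is extended by the ATG conjugation enzymes, coated with LC3 and GABARAP proteins, loaded by receptors such as p62 and delivered to the lysosome. Amino acids hold mTORC1 active on the lysosomal surface, and active mTORC1 restrains both ULK1 and TFEB. TFEB and its relative TFE3 bind E-boxes of the CLEAR type in promoters of many lysosomal genes.

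The promoters of the members are shown because that E-box is the sequence feature known to tie them together. RefSeq windows on GRCm38.p6, from 250 bases before to 50 bases after each start, were matched for 44 of the 53 members. The E-box letters CACGTG, which read the same on both strands, were present in 15 of the 44 members (34.1%) and in 8.09% of 27025 genes with a window. The longer letters TCACGTGA, also the same on both strands and containing CACGTG, were present in 7 of the 44 members (15.9%) and in 1.12% of all genes. The full CLEAR palindrome was matched in 0 of the 44 members and in 0.37% of all genes. A match is a description of the letters and not evidence of binding. The 7 members with the longer letters are printed first, 5′ to 3′ on the strand of the gene, with TCACGTGA in capitals. Lamp1 and Atg7 follow with CACGTG in capitals, Lamp1 because its window held 4 matches and Atg7 because it was the one member called higher in DM. The RefSeq starts behind the Atp6v0e and Atg7 windows lie inside the genes, which begin at chr17:26663231 and chr6:114643097 in GENCODE vM21. Those behind the Mcoln1, Ctsa, Ctsd, Gla and Atp6v1a windows printed also lie inside the genes, but nearer to where GENCODE begins them. The Ctsa gene begins at chr2:164832873, and its other window, at that place, held no match. The Atp6v1a gene begins at chr16:44139705 on the minus strand.
Mcoln1 (chr8:3500458-3500495, plus strand): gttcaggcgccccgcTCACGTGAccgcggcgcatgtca
Ctsa (chr2:164833745-164833799, plus strand): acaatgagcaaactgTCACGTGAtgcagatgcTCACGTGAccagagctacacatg
Ctsd (chr7:142387904-142387941, minus strand): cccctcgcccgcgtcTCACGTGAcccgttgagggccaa
Gla (chrX:134601178-134601248, minus strand): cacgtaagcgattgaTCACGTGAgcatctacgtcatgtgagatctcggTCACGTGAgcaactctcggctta
Atp6v0d1 (chr8:105566046-105566083, minus strand): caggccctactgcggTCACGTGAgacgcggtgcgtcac
Atp6v0e (chr17:26676383-26676420, plus strand): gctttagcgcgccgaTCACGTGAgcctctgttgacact
Atp6v1a (chr16:44139369-44139406, minus strand): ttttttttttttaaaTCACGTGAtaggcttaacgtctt
Lamp1 (chr8:13159085-13159166, plus strand): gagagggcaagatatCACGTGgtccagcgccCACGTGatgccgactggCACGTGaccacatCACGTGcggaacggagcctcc
Atg7 (chr6:114670949-114670984, plus strand): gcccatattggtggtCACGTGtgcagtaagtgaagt

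Depth ranged from 8504742 to 12377285 reads per library. Rn45s, the precursor of ribosomal RNA, made up 31.98% ± 1.33 (SD, n = 2) of the CM reads, 37.7% ± 0.780 of the DM reads and 17.8% ± 3.25 of the DM+Met reads, and TMM factors were 0.897 to 0.938 in CM and DM and above 1 in both DM+Met libraries. The T cell label was met by its markers, since all 8 were read in every library and their sum was 1586 to 2103 CPM. The sum of 20 macrophage and dendritic cell markers was 97.3 and 76.6 CPM in CM, while DM had 210.2 and 158.9 and DM+Met 220.01 and 256.7. The 3 with the greatest mean level were Mmp12, Cybb and Fcer1g. Cd209a was at 0 in every library, and Adgre1 and Itgam, which encode F4/80 and CD11b, were at 0 in CM library 2 and DM library 1. Of the 18 markers tested, 2 were higher in DM than in CM (Mmp12 and Lyz2) and 2 were higher in DM+Met than in CM (Mmp12 and Ms4a7). The sum of 7 CD8 T cell and NK cell markers was 119.1 and 134.4 CPM in CM, compared with 44.1 and 45.7 in DM and with 62.5 and 58.4 in DM+Met. These markers did not all move one way. Of the 6 tested, 2 were called lower and 0 higher in DM against CM, and 2 lower and 1 higher in DM+Met against CM. The sum of 7 B cell markers was 109.9 and 105.03 CPM in the CM libraries, 76.9 and 83.3 in those of DM and 65.4 and 80.2 in those of DM+Met, and 1 of the 6 tested, Blnk, was lower in DM than in CM. In bulk RNA, fewer cells of a type and less RNA per cell cannot be told apart.

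Over the members together, the main difference lay between CM and the dialyzed media, and it was carried by a few genes that did not all move one way. Between DM and CM, 5 of 53 members (9.43%) passed the test, 4 of them lower in DM (Npc2, Atp6v1a, Atp6ap1 and Ctsa) and 1 higher (Atg7), against 16.9% of all rows tested, 9.07% lower and 7.80% higher (limma, Benjamini-Hochberg adjusted p below 0.05). Between DM+Met and CM, 5 members passed, 3 lower (Npc2, Atp6v1a and Neu1) and 2 higher (Sqstm1 and Ctss), against 15.3% of all rows, 8.36% lower and 6.92% higher. Between DM+Met and DM, 0 members passed in limma and limma-voom on recovered reads also called 0, against 0.0548% of all rows, 0.0392% higher and 0.0157% lower. An unadjusted p below 0.05 was found there for 6 members and for 9.69% of all rows. The CM libraries enter the first 2 of these comparisons and the DM libraries the first and the last, so the counts are not independent of each other. In both comparisons with CM the share of members past the test was under that of all rows. Between DM+Met and DM only 7 rows of 12770 were called, so a count of 0 says nothing about the members.

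The members also moved less than a typical row. In DM against CM, the median absolute log2 fold change was 0.37 for the members and 0.60 for all rows, and it was 0.25 against 0.32 between DM+Met and DM and 0.31 against 0.57 between DM+Met and CM. The members were read at a median of 28.1 CPM against 16.1 for all rows tested, and low rows scatter more, so these medians compare sets of unequal depth. The signed median was −0.19 between DM and CM (0.07 for all rows), with 36 of 53 members below 0. It was 0.08 between DM+Met and DM (0.01 for all rows), with 35 of 53 above 0, and −0.09 between DM+Met and CM (0.06 for all rows). Libraries did not overlap between DM and CM for 52.8% of the members and 54.1% of all rows, between DM+Met and DM for 52.8% and 41.02%, and between DM+Met and CM for 64.2% and 60.9%.

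**Figure D1:**
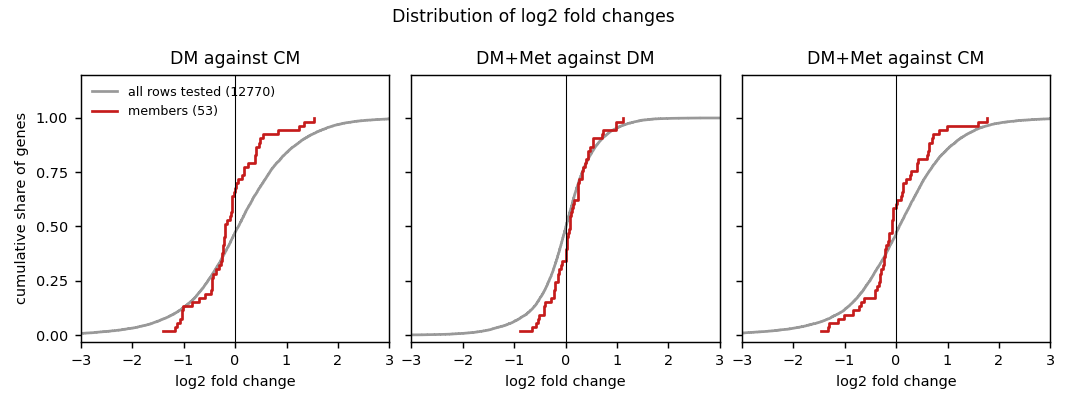
Cumulative share of genes (vertical axis) against the log2 fold change on the log2(CPM + 1) scale (horizontal axis, drawn from -3 to 3) in each comparison, for the 53 members in red and the 12770 rows tested in gray. The members' curve is steeper than that of all rows, and in DM against CM it crosses the middle at −0.19.

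The median SE of a member's log2 fold change was 0.31. The 95% interval lay wholly within a change of 1 on the log2 scale for 19 members between DM and CM, 24 between DM+Met and DM and 20 between DM+Met and CM, and reached that size for the others. For most members a change of that size in DM or after methionine was thus not excluded. The libraries of one medium differed by at least 1 on the log2 scale for 3 members in CM (Naglu, Tfeb and Wipi1), 6 in DM (Gaa, Gla, Atp6v0d1, Tfeb, Wipi1 and Atg9a) and 2 in DM+Met (Ulk1 and Atg9a). These were 5.66%, 11.3% and 3.77% of the members, beside 20.1%, 22.1% and 7.17% of all rows tested, again between sets of unequal depth.

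**Figure D2:**
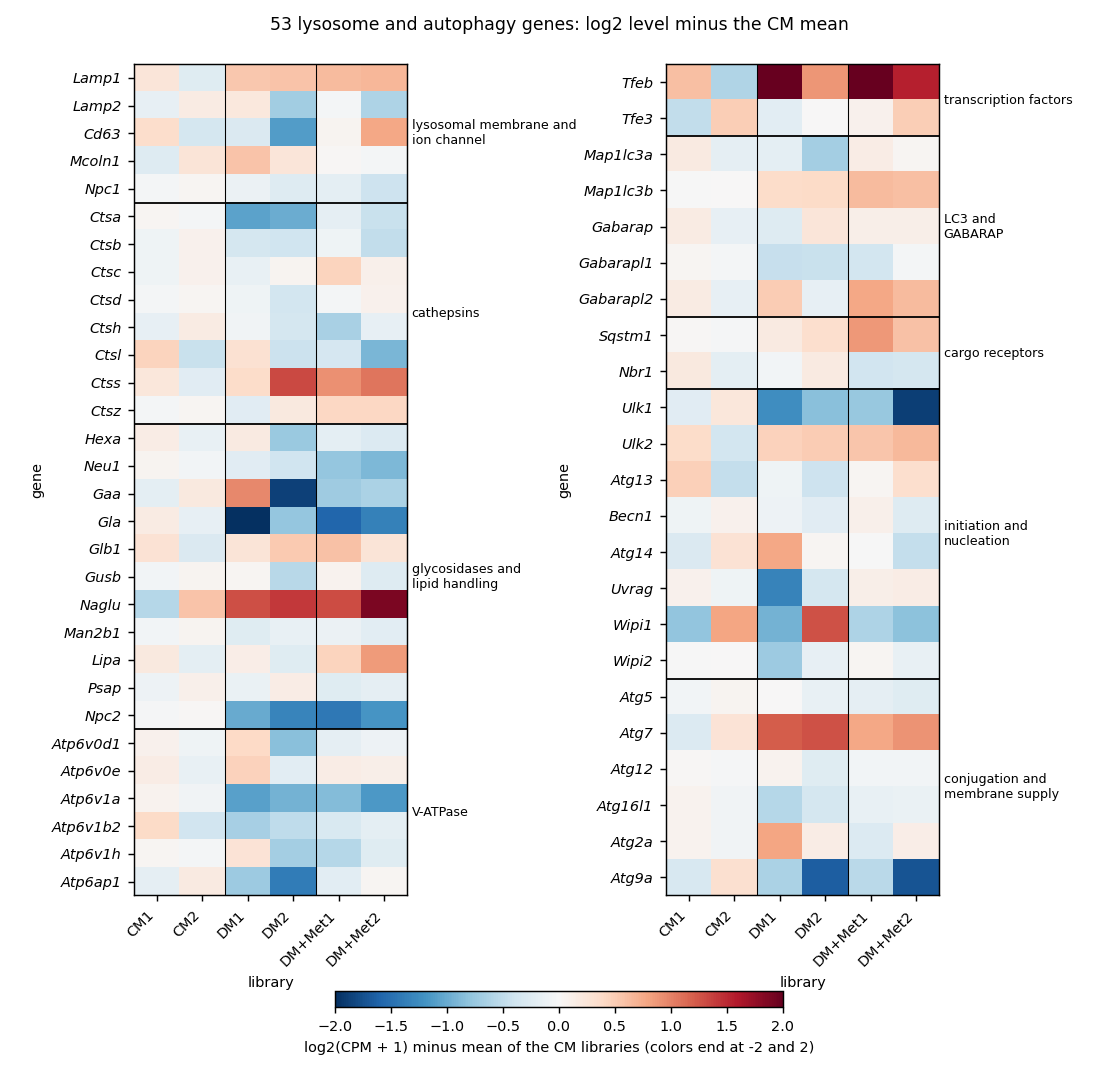
Log2(CPM + 1) of each of the 53 members minus its mean over the CM libraries, with one row per gene grouped by role and one column per library. Npc2 and Atp6v1a are blue in all 4 dialyzed libraries and Atg7 is red in all 4, whereas most rows stay pale.

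Npc2, a soluble protein of the lysosomal lumen that binds cholesterol and passes it to the membrane protein NPC1, was the member at the highest level and with the smallest adjusted p in the comparisons with CM. It lies at chr12:84754562-84773152 on the minus strand (GENCODE vM21). Its level was 977.2 and 1014 CPM in the CM libraries, 494.6 and 397.7 in those of DM and 368.1 and 436.8 in those of DM+Met. All 4 dialyzed libraries were below both CM libraries, and the DM and DM+Met libraries overlapped. Npc2 fell by 1.16 on the log2 scale in DM (SE 0.16, adjusted p 0.00164) and was at −1.31 in DM+Met against CM (SE 0.16, adjusted p 6.67e-04). The difference between DM+Met and DM was −0.14 with a 95% interval of −0.50 to 0.21. Npc2 was the one member whose call against CM was kept whichever library was left out.

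The summed level of the lysosomal members was lower in the dialyzed media, and Npc2 held much of the difference. The sum of the 30 membrane, cathepsin, breakdown and V-ATPase genes was 2816 and 2780 CPM in CM, while DM had 2204 and 2106 and DM+Met 2157 and 2261. Npc2 alone made up 35.6% of that sum in CM on average, against 20.7% in DM and 18.2% with methionine. Without Npc2 the sum was 1839 and 1766 CPM in CM, compared with 1709 and 1709 in DM and with 1789 and 1824 in DM+Met, values that lay close together and overlapped between CM and DM+Met. The summed B cell markers and the summed CD8 T cell and NK cell markers were also below CM in all 4 dialyzed libraries, and their part in these sums was not tested.

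The other genes of glycoside and lipid breakdown mostly did not pass the test. Neu1, the lysosomal sialidase, at chr17:34931253-34935953 on the plus strand, had 60.4 and 55.6 CPM in the CM libraries, 49.4 and 43.6 in those of DM and 33.6 and 30.7 in those of DM+Met. The 3 media did not overlap, with CM highest and DM+Met lowest. Its log2 fold change was −0.31 in DM against CM (adjusted p 0.389), −0.52 in DM+Met against DM (adjusted p 0.519) and −0.83 in DM+Met against CM (SE 0.23, adjusted p 0.0398), and only the last was called. The call was lost with 2 other scalings of the libraries, by library totals with and without Rn45s. It was also lost without an intensity trend and with the library number as a replicate block. With 1 library left out in turn, the log2 fold change in DM+Met against CM was −0.89 to −0.77.

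Psap, the precursor of the saposins that help lipid hydrolysis, was the second in level with 278.8 to 368.6 CPM, and its log2 fold change was −0.22 to 0.01 in the 3 comparisons. Gla, the α-galactosidase, had 17.9 and 14.1 CPM in CM against 3.16 and 8.83 in DM, and DM+Met had 4.61 and 5.63. The dialyzed libraries were all lower, but the log2 fold changes of −1.40 and −1.47 had adjusted p of 0.110 and 0.103. Naglu, which removes N-acetylglucosamine from heparan sulfate, went the other way from very few reads, with 8 and 25 reads in CM, while DM had 58 and 74 and DM+Met 72 and 112 (adjusted p 0.147 in DM against CM). Gaa, the acid α-glucosidase, had 299 and 39 reads in the 2 DM libraries, and its 95% interval in DM against CM ran from −2.15 to 1.25. The remaining members of this role, Hexa, Glb1, Gusb, Man2b1 and Lipa, had log2 fold changes of −0.28 to 0.70 over the 3 comparisons.

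Of the 6 V-ATPase genes, 2 were lower in DM than in CM, 1 was lower in DM+Met than in CM and none was called between DM+Met and DM, beside 9.07% and 8.36% of all rows lower in the comparisons with CM. Atp6v1a encodes the catalytic A subunit of the cytosolic V1 domain, which hydrolyzes ATP, and lies at chr16:44085402-44139705 on the minus strand. It had 138.8 and 126.6 CPM in CM, compared with 62.1 and 68.6 in DM and with 72.4 and 59.5 in DM+Met. Both dialyzed media were below CM and overlapped each other. The log2 fold change was −1.01 in DM against CM (SE 0.20, adjusted p 0.00859) and −1.004 in DM+Met against CM (SE 0.20, adjusted p 0.00859). The difference between DM+Met and DM was 0.01 with a 95% interval of −0.44 to 0.45. Its promoter window held the longer E-box letters printed above, at 132 bases before the RefSeq start. That start and the letters both lie inside the gene as placed by GENCODE.

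Atp6ap1, an accessory protein that takes part in assembly of the pump, lies at chrX:74297097-74304721 on the plus strand. Its level was 75.8 and 97.1 CPM in the CM libraries, 51.6 and 31.8 in those of DM and 74.1 and 87.8 in those of DM+Met. The DM libraries lay below all 4 others, and CM and DM+Met overlapped. Atp6ap1 fell by 1.06 in DM against CM (SE 0.27, adjusted p 0.0249). Between DM+Met and DM the log2 fold change was 0.98 (SE 0.27, unadjusted p 0.00460), but the adjusted p of 0.311 did not pass, and against CM the DM+Met value was −0.09. The other 4 subunits of the list, Atp6v0d1, Atp6v0e, Atp6v1b2 and Atp6v1h, had log2 fold changes of −0.58 to 0.34 and did not pass.

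**Figure D3:**
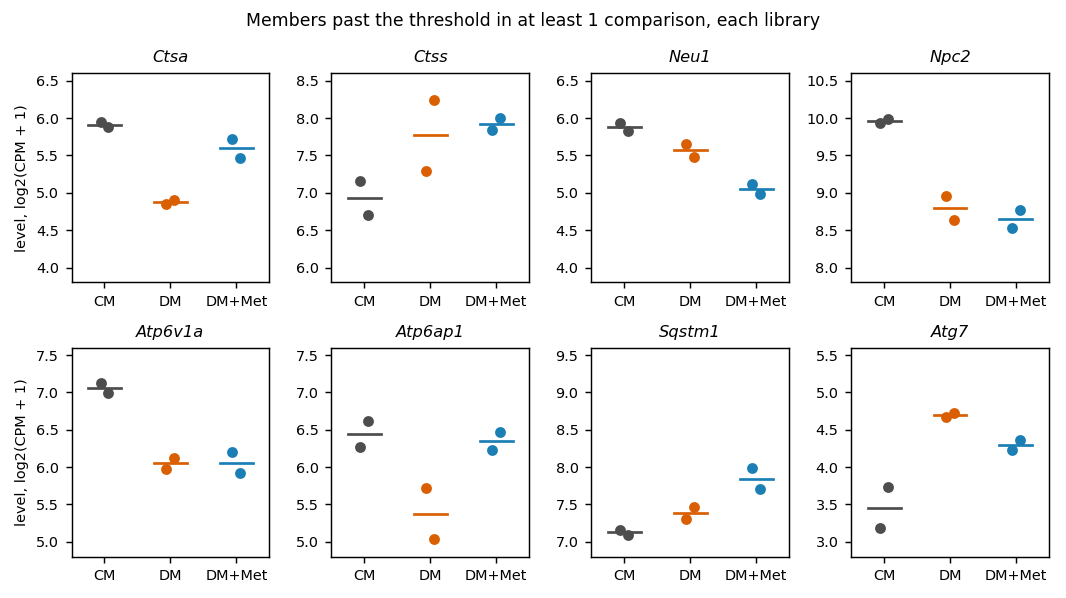
Level in log2(CPM + 1) of each library (points) and the mean of each medium (line, n = 2) for the 8 members past the threshold in at least one comparison. The vertical axes differ between panels and do not start at 0. CM is apart from both dialyzed media for 7 of the 8, and for Atp6ap1 the DM+Met libraries overlap with CM.

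Of the 8 cathepsin genes, Ctsa was lower in DM than in CM and Ctss was higher in DM+Met than in CM. Ctsa, cathepsin A, is a carboxypeptidase that also protects β-galactosidase and the sialidase NEU1 in a complex. Its level was 60.5 and 57.6 CPM in CM, while DM had 27.7 and 29.04 and DM+Met 51.8 and 43.3, so that DM lay below the other media. Ctsa fell by 1.03 in DM (SE 0.24, adjusted p 0.0175), and the log2 fold change between DM+Met and DM was 0.72 (SE 0.24, unadjusted p 0.0129, adjusted p 0.381). Ctsa lies at chr2:164832873-164841032 on the plus strand, and its last 1000 bases overlap Pltp, the phospholipid transfer protein gene, on the opposite strand.

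The reads of Pltp followed those of Ctsa in every library. Pltp had 463 and 385 reads in CM, compared with 218 and 222 in DM and with 524 and 422 in DM+Met, and Ctsa had 531 and 450, 272 and 329, and 618 and 515. The ratio of Ctsa to Pltp stayed between 1.15 and 1.48. Pltp fell by 1.25 on the log2 scale in DM (SE 0.26, adjusted p 0.0118). Whether strand was used in counting is not given in the sources used here, so reads of the 2 genes cannot be told apart and the fall cannot be assigned to Ctsa alone.

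Ctss, cathepsin S, a protease that trims the invariant chain in antigen-presenting cells, had the highest mean level of the cathepsins over all libraries. In both CM libraries it was below Ctsd. Ctss lies at chr3:95526786-95556403 on the plus strand. It had 141.4 and 103.3 CPM in the CM libraries, 155.7 and 303.0 in those of DM and 227.7 and 255.2 in those of DM+Met. The dialyzed libraries were all above CM, and DM library 2 had the highest value while DM library 1 was close to CM. Its log2 fold change was 0.84 in DM against CM (SE 0.28, adjusted p 0.0692) and 0.99 in DM+Met against CM (SE 0.28, adjusted p 0.0426), and only the latter passed. That call was lost without the filter, without an intensity trend and with a pseudocount of 0.1. The macrophage and dendritic cell marker sum was also above CM in all 4 dialyzed libraries. Much of that was Mmp12, and without it the sum was 90.1 and 76.6 CPM in CM, while DM had 101.1 and 85.8 and DM+Met 116.3 and 162.1, so that the DM and CM libraries overlapped. The cells were sorted as CD4 T cells before culture, and the part of other cells in the level of Ctss was not tested.

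The other 6 cathepsin genes did not pass in any comparison. Ctsd, cathepsin D, the main aspartic protease of the lysosome, had 150.5 and 160.6 CPM in CM, compared with 147.1 and 119.8 in DM and with 150.8 and 165.5 in DM+Met. It was close to level, with log2 fold changes of −0.23, 0.25 and 0.02 in the order DM against CM, DM+Met against DM and DM+Met against CM, and with 95% intervals that stayed within −0.61 to 0.64. Ctsb, cathepsin B, a cysteine protease, had 93.3 and 104.4 CPM in the CM libraries, 77.2 and 74.95 in those of DM and 92.6 and 70.2 in those of DM+Met (log2 fold change −0.37 in DM against CM, adjusted p 0.243). The end of Ctsb overlaps the squalene synthase gene Fdft1 on the opposite strand, which had 479 and 356 reads in CM, while DM had 133 and 208 and DM+Met 155 and 156, fewer than Ctsb in every library. Ctsl, cathepsin L, had 19.8 and 10.2 CPM in CM, compared with 17.95 and 10.4 in DM and with 11.1 and 7.14 in DM+Met, and its 95% interval in DM against CM ran from −1.16 to 1.04. Ctsc, Ctsh and Ctsz had log2 fold changes of −0.41 to 0.43.

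**Figure D4:**
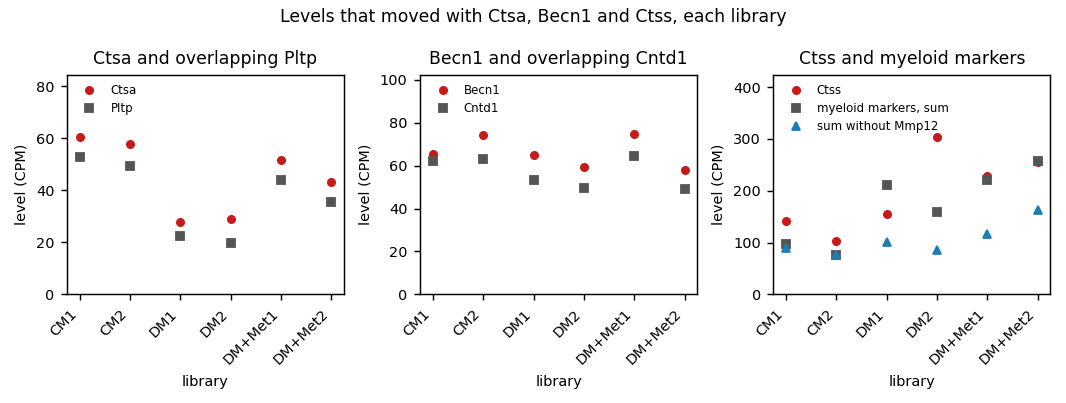
Levels in CPM (vertical axes from 0) in each library, for Ctsa with the overlapping gene Pltp, for Becn1 with the overlapping gene Cntd1, and for Ctss with the summed macrophage and dendritic cell (myeloid) markers with and without Mmp12. Pltp and Cntd1 run just below their partners in every library, and the sum of all markers is lowest in the CM libraries, as is Ctss, whereas without Mmp12 DM library 2 (85.8 CPM) is below CM library 1 (90.1 CPM).

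Among the membrane genes, Lamp1 came nearest to the threshold. LAMP1 is an abundant glycoprotein of the lysosomal membrane. Its transcript had 119.8 and 86.1 CPM in the CM libraries, 148.3 and 150.5 in those of DM and 157.5 and 160.7 in those of DM+Met. All 4 dialyzed libraries were above CM, and the spread was widest in CM. The log2 fold change was 0.55 in DM against CM (SE 0.19, adjusted p 0.0773) and 0.64 in DM+Met against CM (SE 0.19, adjusted p 0.0503), neither of which passed. Lamp2, the second major membrane glycoprotein, had 26.3 to 50.2 CPM with overlapping media. Npc1, the membrane partner of NPC2 in cholesterol export, had 78.4 and 82.0 CPM in CM, while DM had 74.3 and 66.6 and DM+Met 69.6 and 60.05, with log2 fold changes of −0.19 and −0.31 against CM. Mcoln1, the calcium channel TRPML1, was read at 26 to 59 reads per library with log2 fold changes of −0.42 to 0.41. Cd63, a tetraspanin, had a log2 fold change of 1.12 between DM+Met and DM (adjusted p 0.419), from 22.5 and 12.2 CPM in DM to 28.9 and 47.9 in DM+Met, and a processed copy in the annotation, Cd63-ps, could share its reads.

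The 2 transcription factors were read at low levels. Tfeb, which encodes the factor that mTORC1 keeps out of the nucleus, had 32 and 8 reads in CM, compared with 125 and 53 in DM and with 133 and 95 in DM+Met, or 3.64 and 1.02 CPM, 12.7 and 4.68, and 11.1 and 7.98. The dialyzed libraries were all above CM. Its log2 fold change was 1.53 in DM against CM (SE 0.65, adjusted p 0.134) and 1.77 in DM+Met against CM (SE 0.65, adjusted p 0.0963), with 95% intervals of 0.08 to 2.97 and 0.32 to 3.21, and did not pass the adjusted threshold. Tfe3 had 11.2 and 23.1 CPM in the CM libraries, 13.8 and 16.2 in those of DM and 17.2 and 22.9 in those of DM+Met, and the CM libraries spanned the others. Its log2 fold change was −0.10 in DM against CM (adjusted p 0.898). These are transcript levels, and the location or activity of the factors was not measured.

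The members were compared by the presence of the E-box in their promoter windows. Among the 15 members with CACGTG, 3 were called between DM and CM, Ctsa and Atp6v1a lower and Atg7 higher, and the median log2 fold change was −0.06. Among the 29 members with a window and no match, 2 were called, both lower, and the median was −0.10. Of all rows tested, 16.9% were called between DM and CM, with a median of 0.07. Between DM+Met and CM, 1 of the 15 was called (Atp6v1a, lower) with a median of −0.15, and 4 of the 29 with a median of −0.05. Of all rows tested, 15.3% were called there, with a median of 0.06. For the 7 members with TCACGTGA the median was −0.23 in DM against CM, with 5 of 7 below 0, and Ctsa and Atp6v1a were the 2 called. No comparison between these subsets was tested.

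Of the autophagy members, Sqstm1 carried the highest level and the smallest adjusted p. It encodes p62, which binds ubiquitinated cargo and LC3 and is itself degraded by autophagy, and it lies at chr11:50199366-50210827 on the minus strand. Its level was 141.8 and 135.8 CPM in CM, while DM had 156.7 and 175.3 and DM+Met 252.7 and 207.8. The 3 media did not overlap, with CM lowest and DM+Met highest. The log2 fold change was 0.72 in DM+Met against CM (SE 0.17, adjusted p 0.0187), which was called, though not without an intensity trend. It was 0.25 in DM against CM (SE 0.17, adjusted p 0.330) and 0.46 in DM+Met against DM (SE 0.17, unadjusted p 0.0204, adjusted p 0.418), and neither passed. The gene that overlaps its end on the other strand, 3010026O09Rik in the files, had 7 to 60 reads. Nbr1, the other cargo receptor, had 24.4 to 36.7 CPM and log2 fold changes of −0.42 to 0.06.

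In the LC3 and GABARAP family, the proteins joined to lipid on the growing membrane, 0 of 5 genes were called in any comparison. Map1lc3b, which encodes LC3B, had 56.7 and 57.6 CPM in CM, compared with 74.06 and 75.2 in DM and with 89.3 and 86.8 in DM+Met. The media stood apart in that order with little spread within each. Its log2 fold change was 0.38 in DM against CM (SE 0.19, adjusted p 0.202), 0.24 in DM+Met against DM (SE 0.19, adjusted p 0.762) and 0.61 in DM+Met against CM (SE 0.19, adjusted p 0.0574). The SE of this fit is set in part by the spread of all rows at a like level. Gabarapl1 had 25.5 and 24.3 CPM in the CM libraries, 17.7 and 18.01 in those of DM and 19.2 and 24.2 in those of DM+Met, with a log2 fold change of −0.46 in DM against CM (SE 0.32, adjusted p 0.357). Gabarap had 67.3 to 95.3 CPM with log2 fold changes of −0.01 to 0.12, Gabarapl2 had 0.70 in DM+Met against CM (adjusted p 0.134), and Map1lc3a was read at 44 to 92 reads per library. All 5 had a log2 fold change above 0 between DM+Met and DM, from 0.12 to 0.54.

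None of the 8 initiation and nucleation genes was called. Ulk1, the kinase that starts autophagy when amino acids are short, had 25.1 and 34.6 CPM in CM, while DM had 11.9 and 16.1 and DM+Met 16.9 and 7.22. All dialyzed libraries were below CM, and the DM+Met libraries were far apart. The log2 fold change was −1.03 in DM against CM (SE 0.45, adjusted p 0.143) and −1.33 in DM+Met against CM (SE 0.45, adjusted p 0.0760). Ulk2, its paralog, had the opposite sign, with log2 fold changes of 0.48 and 0.60. Becn1, which encodes Beclin 1, was level at 58.1 to 74.7 CPM, but its end overlaps Cntd1 on the opposite strand, and the ratio of Becn1 to Cntd1 reads was 1.05 to 1.22 in the 6 libraries, so the reads of these 2 genes cannot be told apart either. Uvrag, a partner of Beclin 1, had 30.4 and 26.8 CPM in CM, compared with 10.7 and 22.2 in DM and with 31.2 and 31.7 in DM+Met (log2 fold change −0.84 in DM against CM, adjusted p 0.147). Wipi1 had 0 to 41 reads per library, and its 0 in DM library 1 allows a log2 level of up to 0.385 for counting error only. Atg13, Atg14 and Wipi2 had log2 fold changes of −0.66 to 0.44.

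Of the 6 conjugation and membrane supply genes, Atg7 rose in DM. ATG7 is the E1-like enzyme that activates both ATG12 and the LC3 family, and its gene lies at chr6:114643097-114860614 on the plus strand. It had 8.09 and 12.3 CPM in the CM libraries, 24.4 and 25.5 in those of DM and 17.8 and 19.6 in those of DM+Met. Both dialyzed media were above CM, and DM was above DM+Met. Its log2 fold change was 1.24 in DM against CM (SE 0.37, adjusted p 0.0465), 0.84 in DM+Met against CM (SE 0.37, adjusted p 0.159) and −0.40 in DM+Met against DM (SE 0.37, adjusted p 0.793). The call in DM lay just inside the threshold and was lost under 10 of 14 alternatives, with an adjusted p of 0.0307 to 0.150 over them. The partners of Atg7 in the 2 conjugation systems stayed near level, Atg5 at 41.4 to 51.2 CPM and Atg12 at 46.01 to 57.6 CPM, with log2 fold changes of −0.21 to 0.03. Atg16l1 had −0.46 in DM against CM. Atg9a, the scramblase of the vesicles that supply membrane, had −1.14 and −1.13 against CM (adjusted p 0.209 and 0.224) with libraries of one medium more than 1 apart, and Atg2a, a lipid transfer protein, had 0.47 in DM against CM and −0.54 in DM+Met against DM.

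**Figure D5:**
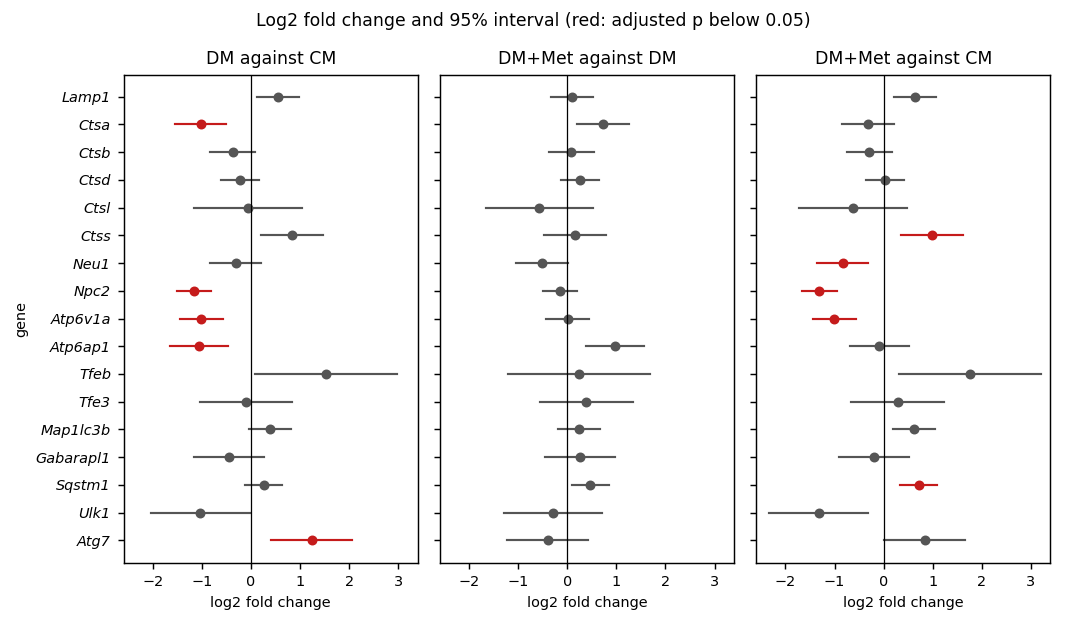
Log2 fold change (point) and its 95% interval from limma (line) for the 8 called members and the landmark genes of each role, in the 3 comparisons. Intervals in red belong to members with an adjusted p below 0.05, of which there are 5 in DM against CM, 0 in DM+Met against DM and 5 in DM+Met against CM.

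All 8 called members had both DM libraries on one side of both CM libraries, and 7 of them, all but Atp6ap1, had both DM+Met libraries on that side too. The members had been chosen for calls in these comparisons, so that this is a description. The DM and DM+Met libraries overlapped for Npc2, Atp6v1a and Ctss. The DM+Met libraries lay between those of DM and CM for Ctsa and Atg7, and they overlapped with CM for Atp6ap1. For Sqstm1 and Neu1 the DM libraries lay between the others. No member was called between DM+Met and DM, so a place of DM+Met nearer to CM or farther from it than DM was not shown for any of them.

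Further genes of the same pathways were counted from lists that hold none of the members. Of 69 tested genes of the lysosome, 1 rose and 5 fell in DM against CM (8.70%, beside 16.9% of all rows), 0 were called between DM+Met and DM, with 9 at an unadjusted p below 0.05 (9.69% of all rows), and 2 rose and 4 fell in DM+Met against CM (8.70%, beside 15.3% of all rows). The median log2 fold changes were 0.03, 0.16 and 0.15. Atp6v0d2, an isoform of the V-ATPase d subunit that is characteristic of osteoclasts and macrophages, rose in both dialyzed media. It went from 28 and 14 reads in CM to 115 and 95 in DM (log2 fold change 1.68, adjusted p 0.0464) and 174 and 195 in DM+Met (2.27, adjusted p 0.0142). The part of other cells in its level was not tested. Scpep1, a serine carboxypeptidase, fell by 1.69 in DM (adjusted p 0.00198), from 887 and 831 reads to 262 and 416, and was at −0.79 in DM+Met against CM (adjusted p 0.0499). Scarb2, which encodes the carrier LIMP-2 of β-glucocerebrosidase, was lower in both dialyzed media, at −1.25 and −1.18 against CM (adjusted p 0.0272 and 0.0365). Mcoln2, a channel related to Mcoln1, was also lower in both, at 37 and 42 reads in CM, while DM had 4 and 5 and DM+Met 4 and 0. Galns (−2.56) and Ap3d1 (−0.76) were lower in DM than in CM, and their values of −1.02 and −0.33 in DM+Met against CM did not pass. Gm2a was lower (−0.72) and Cln3 higher (1.10) in DM+Met than in CM, and their values of −0.59 and 0.52 in DM against CM did not pass. Whether DM and DM+Met differ was tested directly, and none of these 4 genes was called there. Slc36a1, a lysosomal amino acid carrier, was among the 5 with the greatest change in DM and did not pass (1.45, adjusted p 0.108).

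Of 44 further autophagy genes, 2 rose and 3 fell in DM against CM (11.4%, beside 16.9% of all rows). Between DM+Met and DM 0 were called, with 8 of the 44 at an unadjusted p below 0.05, beside 9.69% of all rows. In DM+Met against CM, 2 rose and 4 fell (13.6%, beside 15.3% of all rows). Bnip3, a mitophagy receptor induced by hypoxia, had 2094 and 1772 reads in CM, compared with 949 and 1318 in DM and with 835 and 805 in DM+Met. It was lower in both dialyzed media (log2 fold change −1.12 and −1.74, adjusted p 0.00320 and 2.71e-04). Its relative Bnip3l was lower in DM+Met against CM (−0.76, adjusted p 0.0165). Sh3glb1 (−0.57 and −0.91) and Atg16l2 (−1.07 and −1.51) were lower in both. Tecpr1, a tether of autophagosomes to lysosomes, rose in DM (1.01, adjusted p 0.00505), as did Vps18 of the HOPS tethering complex (1.76, adjusted p 0.0444). Rb1cc1, which encodes the ULK1 partner FIP200, rose in DM+Met against CM (0.997, adjusted p 0.0201), from 558 and 728 reads to 2152 and 1579, and so did the receptor gene Calcoco1 (1.63, adjusted p 0.0117).

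Of 16 regulators of the lysosomal program outside the members, 2 rose against CM in each dialyzed medium and 0 fell. That was 12.5%, beside 16.9% of all rows in DM and 15.3% in DM+Met. Between DM+Met and DM 0 were called, and 0 had an unadjusted p below 0.05, beside 9.69% of all rows. Fnip1, a partner of folliculin, had 1057 and 810 reads in the CM libraries, 1730 and 2007 in those of DM and 2504 and 2193 in those of DM+Met, with log2 fold changes against CM of 0.66 and 0.81 (adjusted p 0.0258 and 0.0105). Zkscan3, described as a repressor of lysosome and autophagy genes, had 227 and 149 reads in CM, while DM had 857 and 590 and DM+Met 749 and 468, with log2 fold changes of 1.56 and 1.13 (adjusted p 0.0129 and 0.0484). Both were above both CM libraries in all 4 dialyzed libraries. Tfec, a relative of Tfeb, was among those with the greatest change in DM+Met against CM and did not pass (1.89, adjusted p 0.0712).

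The scaling of the libraries moved the direction of several members. Scaling by library totals in place of TMM raised the median of all rows to 0.34 in DM+Met against DM (0.01 with TMM) and to 0.41 in DM+Met against CM (0.06 with TMM). Under it 10 members were higher and 1 lower in DM+Met against CM, in place of 2 and 3, and the median of the members was 0.30, below that of all rows. In DM against CM the split was 1 higher and 4 lower under both scalings. With totals taken without Rn45s it was 3 higher and 4 lower in DM against CM and 4 higher and 2 lower in DM+Met against CM. Npc2 was lower and Sqstm1 and Ctss were higher in DM+Met against CM under each of these scalings.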

How the data were processed

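RNA of CD4 T cells in CM, DM and DM+Met was sequenced from 500 ng per library with a 3′-end kit (QuantSeq), with 2 libraries per medium. The authors deposited CPM after TMM scaling, plus 1, as log2, for 23282 rows. TMM and CPM are named by the study, and the base of the log and the 1 were worked out from the files. Bowtie2, bedtools and mm10 are named in the submitters' processing notes, without versions or roles. The annotation and the use of strand in counting are not given in the sources used here. Steps of equal size gave the reads behind each value, and at up to 300 reads at least 99.776% lay within 0.1 of a whole number. A floor of 3 reads was a log2 value of 0.323 to 0.469, for counting error only. The libraries of a medium differed by more than sampling noise (chi-square per degree of freedom 18.2 to 35.9).

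Rows with at least 2 libraries at 0.946 CPM (10 reads at the median depth) and 15 reads in total were fitted with limma 3.58.1 in R 4.3.3 (lmFit, eBayes with an intensity trend), the 3 media in one fit without covariates, with 6.87 prior degrees of freedom. Tests were two-sided, with Benjamini-Hochberg adjustment over the 12770 rows and a threshold of 0.05, and the script was tested on simulated data. Every p printed is from this fit unless another is named. Fold changes on the log2(CPM + 1) scale understate those of low genes. Since the unit is log2, no count model was the main test, and limma-voom on the recovered reads was an alternative.

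The members and all gene lists were chosen with earlier results of these data known. Full values are given for members called in a comparison and for 10 landmark genes, and others by range. Further pathway genes are named when called with libraries that do not overlap, or from the 5 with the greatest change. Promoter windows are from RefSeq (GRCm38.p6) and gene positions from GENCODE vM21 of the same build. Alternatives were other scalings, filters, pseudocounts, limma-voom, fits of 2 media, no trend, a library block and leaving out each library. Of 183 other list entries, 179 matched a row.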

Additional observations from a re-analysis of the deposited data

How the results depend on the processing

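With 2 libraries per medium, the calls on single members depended on the variance model and on each library. In DM against CM, 5 members were called. The number was 3 without the filter, 2 with the 2 media fitted alone and 0 without an intensity trend, where 8 had an unadjusted p below 0.05, while limma-voom gave 4. In DM+Met against CM, 5 were called, against 11 with library totals and 1 without a trend. Leaving out each library in turn gave 1 to 2 members in DM against CM and 1 in DM+Met against CM. Npc2 was called in each of these fits, joined by Atp6ap1 without DM library 1 and by Atp6v1a without DM library 2. The lone library left in a medium is assumed there to vary like the others. Npc2 lost its call in DM against CM under 1 of 14 alternatives, no trend (adjusted p 0.0509), and under 0 of 14 in DM+Met against CM. In DM+Met against DM, 0 members were called under every alternative run, including the pseudocount of 0.1 added after the data were seen. The library number as a replicate block gave 4, 0 and 4 calls. Same-numbered libraries did not deviate together (r = −0.0247, 0.00476 and −0.0303), so the numbers were not taken as pairs.

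Of 711 fold changes of named members under alternatives, 618 kept direction and side of the threshold, 53 were weaker, 14 stronger and 26 reversed, all of the last in values that were not called. With library totals, DM+Met against CM became 0.0748 for Ctsa, 0.103 for Ctsb, 0.30 for Atp6ap1 and 0.18 for Gabarapl1, and DM+Met against DM became 0.22 for Npc2 and 0.0464 for Ulk1. With totals without Rn45s, Ctsl (0.0923) and Tfe3 (0.0504) in DM against CM, Atp6v1a in DM+Met against DM (−0.0283) and Atp6ap1 in DM+Met against CM (0.0315) changed sign. Leaving out 1 library gave a range through 0 for Ctsb (−0.11 to 0.28), Ctss (−0.33 to 0.63), Npc2 (−0.30 to 0.012), Atp6v1a (−0.13 to 0.15), Tfeb (−0.40 to 0.88) and Ulk1 (−0.85 to 0.27) in DM+Met against DM, for Ctsl (−0.50 to 0.39) and Tfe3 (−0.59 to 0.39) in DM against CM, and for Ctsd (−0.0435 to 0.0895), Atp6ap1 (−0.27 to 0.087) and Tfe3 (−0.21 to 0.78) in DM+Met against CM. The cause was not tested.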
